A study of Mus musculus with 12 samples.

Results

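The subject is the insulin and growth hormone receptor axis of the mouse liver, taken as 4 transcripts: Insr, Irs2, Ghr and Igfals. Its members are all rows of the deposited peak table whose gene name is 1 of these 4, which gave 9 peaks of 17503 peaks with a gene name, in 4 of 10277 named genes. Every member gene was found, with 2 peaks in Insr, 4 in Irs2, 2 in Ghr and 1 in Igfals, and no peak was filtered out. The genes were picked by name and with earlier results of these data known, so their values are a description.

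The study asked which N6-methyladenosine (m6A) marks of postnatal liver mRNA depend on Mettl3, the gene of the catalytic subunit of the m6A methyltransferase. It used m6A RNA immunoprecipitation and sequencing (MeRIP-seq), in which RNA fragments bound by an anti-m6A antibody (IP) are sequenced beside input mRNA. There are 12 libraries, 3 replicates in each of 4 groups: Mettl3-deficient IP, Mettl3-deficient input, wild-type IP and wild-type input, all from liver of C57BL/6 mice. The labels used here do not say how or in which cells Mettl3 was removed, nor the age or sex of the mice.

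Insulin reaches the liver through the portal vein and binds the insulin receptor, a tyrosine kinase that phosphorylates docking proteins such as IRS2. IRS proteins recruit phosphoinositide 3-kinase, which activates AKT and thereby lowers glucose output and raises lipid synthesis in hepatocytes. Growth hormone acts through a separate cytokine receptor that signals by JAK2 and STAT5. In the liver this drives production of IGF1 and of the acid-labile subunit, encoded by Igfals, which holds IGFs in a long-lived complex in the circulation. In mRNA, m6A is typically densest in the last exon, around the stop codon and in the 3′ UTR.

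Values of single peaks were computed by the authors. The deposited table holds 1 log2 fold change and 1 false discovery rate (FDR) per peak for the comparison of the genotypes, and no value per library. The value in each mouse, the spread between mice and the read depth are therefore unknown here, and whether a change exceeds the spread between replicates could not be tested. The header does not name the numerator of the fold change. The design makes it likely, but does not settle, that Mettl3-deficient liver is on top, so that a negative value is a loss of m6A enrichment there. A peak is called here when its deposited FDR is 0.05 or below. The livers are bulk tissue, in which fewer cells of a type and less RNA or m6A per cell cannot be told apart. Without levels, marker genes of cell types show only whether their transcripts carry listed peaks and cannot check the tissue. Of 6 hepatocyte marker genes 5 had a listed peak, of which 3 were negative and 2 positive by leading peak. Over all genes 47.6% were negative and 33.6% positive by leading peak. The 4 listed of 6 endothelial and the 4 listed of 5 stellate marker genes were all positive (Cdh5 and Pdgfrb turn negative once the median of all peaks is subtracted). Both listed of 4 cholangiocyte marker genes were negative, and of 5 macrophage and leukocyte marker genes 2 were negative and 2 positive, while 1 missed the threshold. The part of such cell type differences in the values below was not tested.

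Insr, Irs2 and Igfals carried negative peaks only, while Ghr carried a shallow negative peak at its 3′ end and a positive one at its start. Of the 9 peaks, 8 were called negative and 1 was called positive, and none missed the threshold. The background is high: 76.2% of all listed peaks were called, 40.6% negative and 35.6% positive. The median of the 9 peaks, 4 of them from Irs2, was -2.05 on the log2 scale, against 0.34 for all listed peaks. These sets differ in feature class, since the only 5′ UTR peak of the 9 is that of Ghr. By class the medians of all listed peaks were -0.52 for 3′ UTR, -0.68 for exon and 0.65 for 5′ UTR peaks. The FDR threshold is a weak filter in this table, so the size of each change and its rank among peaks of the same class are given beside it.

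**Figure D1:**
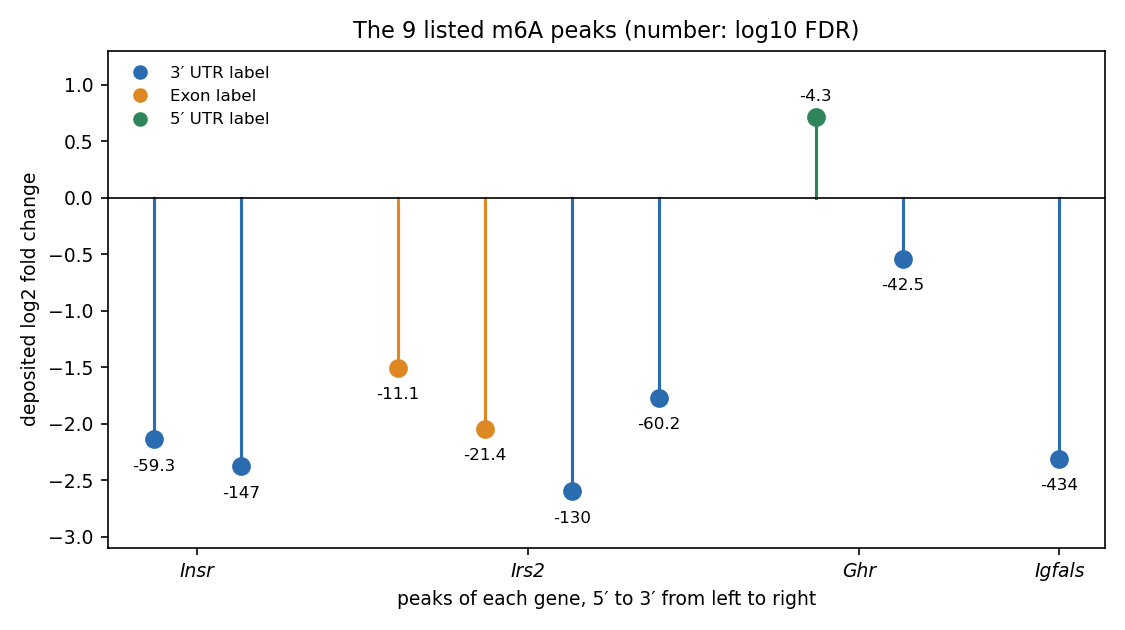
Deposited log2 fold change (vertical axis) of each of the 9 peaks, ordered 5′ to 3′ within its gene, with colour for the authors' feature label and the log10 FDR printed at each point. All 7 peaks of Insr, Irs2 and Igfals lie between -2.60 and -1.51, while those of Ghr stand at 0.71 and -0.54.

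Insr (ENSMUSG00000005534) encodes the insulin receptor itself. Both of its listed peaks lay close to the end of a gene whose RefSeq span covers 128728 bp of chromosome 8, from 3150922 to 3279649 on mm10, and which is read on the minus strand. In the authors' deposited table the peak at chr8:3153553-3154302, labelled 3′ UTR, had a log2 fold change of -2.38 and a log10 FDR of -147. This corresponds to a ratio of 0.192 between the genotypes. The peak at chr8:3155410-3155979, also labelled 3′ UTR, had -2.14 and a log10 FDR of -59.3 in the authors' deposited table, a ratio of 0.227. The peaks are 750 and 570 bp wide and begin after 97.37% and 96.07% of the gene span, so the whole upstream part of the gene held no listed peak.

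The 2 Insr peaks thus moved the same way and to nearly the same extent. They differed by 0.24 on the log2 scale, where the median range within the 2331 genes with 2 called peaks was 0.58, and 0.46 within the 820 of those genes (35.2%) whose peaks were both negative. Among the 9804 listed 3′ UTR peaks, 4.63% had a lower value than the first and 7.53% a lower value than the second. The authors tied both peaks to a transcript of the nonsense-mediated decay class that starts at 3159555, so the deposited distances of 5253 and 3576 bp count from inside the gene. Counted from the RefSeq start of Insr the peaks lie at 125347 and 123670 bp.

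Irs2 (ENSMUSG00000038894) encodes insulin receptor substrate 2, the docking protein that links the activated receptor to phosphoinositide 3-kinase. Its 4 peaks were spread over most of the gene, and all were negative. The gene spans 24249 bp of chromosome 8, from 10984681 to 11008929, on the minus strand. Following the transcript from its start, the peak at chr8:11006241-11007349 in exon 1 of 2 had -1.51 and a log10 FDR of -11.1 in the authors' deposited table. The next, at chr8:11005282-11005911 in the same exon, had -2.05 and a log10 FDR of -21.4 in the authors' deposited table. These 2 negative exon peaks stand against a background of 38.6% called negative among all 3447 exon peaks.

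The third Irs2 peak was the most negative of the 9. It runs from 10986059 to 11004893 and is labelled 3′ UTR, with -2.60 and a log10 FDR of -130 in the authors' deposited table, a ratio of 0.165. Its 18835 bp are a span on the genome that includes the intron and cover most of the gene, from 16.64% to 94.32% of its length, so its place on the RNA cannot be read from the table. Peaks wider than 10000 bp made up 6.5% of the listed peaks. The fourth peak, at chr8:10984681-10985520, starts at the very base where the RefSeq gene ends. It had -1.77 and a log10 FDR of -60.2 in the authors' deposited table.

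**Figure D2:**
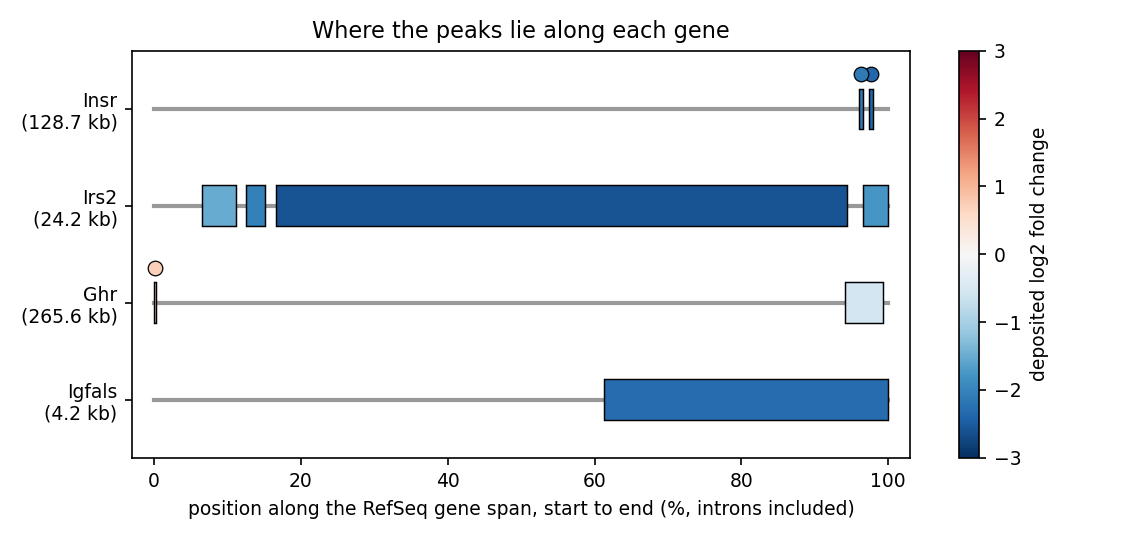
Position of the 9 peaks along the RefSeq span of each gene (horizontal axis, percent of the span from start to end, introns included), coloured by deposited log2 fold change, with a circle above each peak narrower than 2% of the span. Insr and Igfals hold peaks in their end part alone, Irs2 over most of its length, and Ghr at both ends.

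Values within Irs2 ranged over 1.09 on the log2 scale, from -2.60 to -1.51. Genes with 4 called peaks were uncommon: there were 201, in which the median range was 1.61. Both signs occurred in 111 of them (55.2%), 36 were positive throughout and 54 (26.9%) negative throughout, as Irs2 was. Within those 54 genes the median range was 1.0. Of the 3′ UTR peaks 2.98% were lower than the wide peak and 14.1% lower than the last one. Of the exon peaks 12.6% were lower than the second peak and 24.9% lower than the first. No Irs2 peak was labelled 5′ UTR, and none overlapped the RefSeq promoter window of the gene.

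Ghr (ENSMUSG00000055737) encodes the growth hormone receptor. It differed from the other 3 genes in holding called peaks of opposite sign, at the 2 ends of a gene that spans 265598 bp of chromosome 15, from 3317755 to 3583352, on the minus strand. In the authors' deposited table the 3′ UTR peak at chr15:3319558-3333369 had a log2 fold change of -0.54 with a log10 FDR of -42.5, a ratio of 0.688. The 5′ UTR peak at chr15:3582579-3583492 had 0.71 with a log10 FDR of -4.30 in the authors' deposited table, a ratio of 1.64. The larger change thus has the weaker FDR, and the peak taken as leading by FDR is the smaller one. The sign given to the gene depends on this choice: the mean over both peaks is 0.085.

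Each Ghr peak lay near the median of all listed peaks of its class, negative and positive together. The median of all 3′ UTR peaks was -0.52 and 49.4% of them were lower than that of Ghr. The median of all 5′ UTR peaks was 0.65 and 54.9% were lower than that of Ghr. Relative to these class medians the values of Ghr were -0.02 and 0.06. Few 3′ UTR peaks lay near the class median on its upper side: 37 fell between -0.25 and 0, and 47 between 0 and 0.25. That median thus pools separate negative and positive values. The called negative 3′ UTR peaks alone had a median of -1.34, so the Ghr peak at -0.54 was shallow beside them. For the called positive 5′ UTR peaks the median was 0.78, close to the 0.71 of Ghr. Of all 5′ UTR peaks, 53.4% were called positive and 23.0% negative, and of 3′ UTR peaks 48.9% were called negative. Called peaks of both signs were present in 744 of the 2331 genes with 2 called peaks (31.9%). The difference between the Ghr peaks was 1.25 on the log2 scale, against a median range of 2.12 for the 744 genes with both signs and of 0.58 for all 2331.

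**Figure D3:**
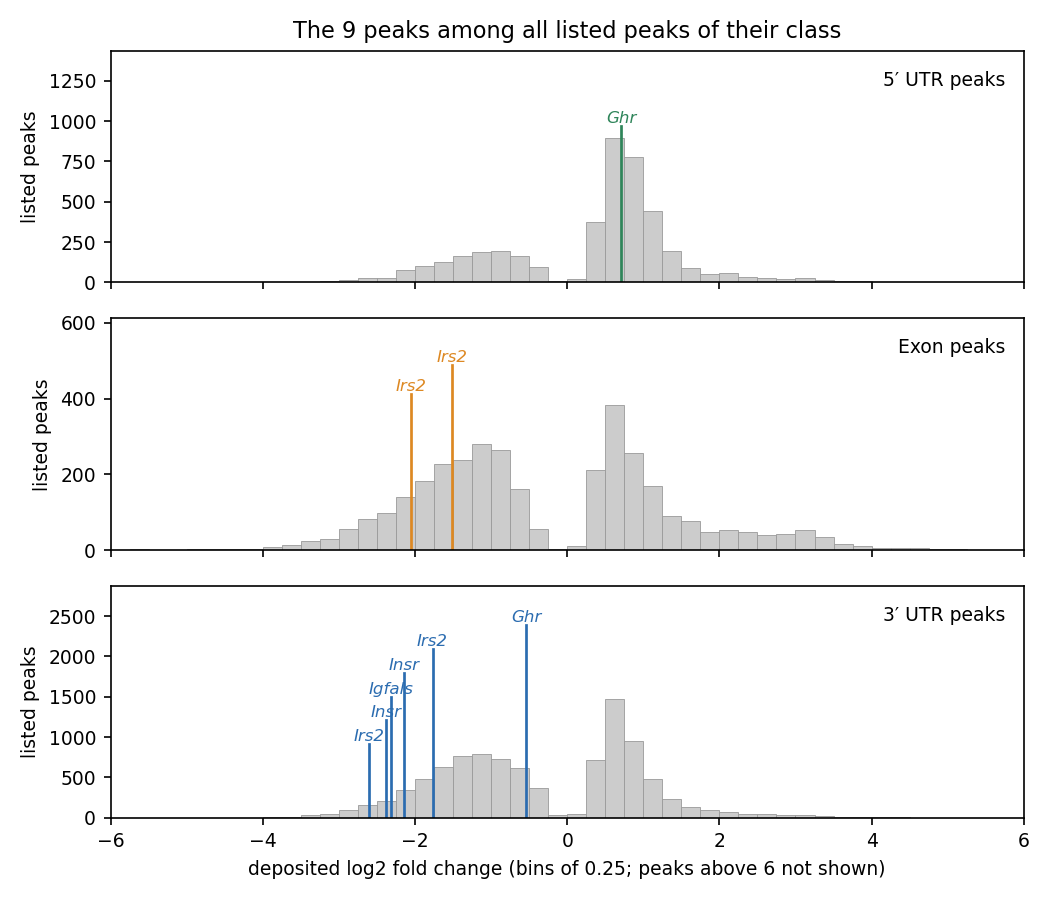
Number of all listed peaks (vertical axes) in bins of 0.25 of the deposited log2 fold change (horizontal axis), for 5′ UTR, exon and 3′ UTR labels, with a coloured line at each of the 9 peaks. The 2 Ghr values fall near the medians of their classes, 0.65 and -0.52, and the peaks of Insr, Irs2 and Igfals in the 3′ UTR class lie at -1.77 or lower.

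The 5′ UTR peak of Ghr is the only member peak that covers a transcript start. It holds both the RefSeq start at 3583352 and the start of the transcript named in the table at 3583230, which is 122 bp downstream. It reaches 140 bp upstream of the RefSeq start and 774 bp into the gene. A reference sequence was at hand for part of this peak, the exception in sign among the 9, and its upstream stretch is shown. It lies on the minus strand at chr15:3583353-3583492, is read 5′ to 3′ from the RefSeq promoter table of GRCm38.p6 (the same build as mm10) and has a G and C content of 71.4%. Capitals mark the letters GGACT, a common form of the short sequence in which m6A is placed.

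Ghr upstream stretch: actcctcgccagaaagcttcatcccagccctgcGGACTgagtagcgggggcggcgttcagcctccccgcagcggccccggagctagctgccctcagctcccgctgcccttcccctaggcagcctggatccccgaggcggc

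GGACT occurs 1 time on the gene strand of this stretch, beginning 107 bp before the RefSeq start at position 3583459, and 0 times on the other strand. The same stretch of the 32851 RefSeq promoter windows holds GGACT on the gene strand in 12.4% and on either strand in 24.0%, so a match at this length is common. It is a description of the letters and not of a methylated site. The promoter table has 2 windows for Ghr, 3 for Igfals, 1 for Irs2 and 0 for Insr, and the peak overlaps 1 of the Ghr windows, by 190 bp. These include 50 bp after the RefSeq start, which are not shown and hold no GGACT on either strand. The other Ghr window, around the start at 3581842, is not overlapped.

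The 3′ UTR peak of Ghr is 13812 bp wide and so includes intron. It lies wholly inside the RefSeq span of Gm41254, a long noncoding RNA gene on the opposite strand that runs from 3298490 to 3385622. The library kit was stranded per the labels' protocols, but the sources used here do not say whether reads were counted by strand, so reads of the 2 genes may not have been told apart. No RefSeq gene other than the member itself overlapped any of the other 8 peaks. No listed peak of another gene overlapped a member peak, although the table holds 1470 overlapping pairs of rows, 1263 of them within the same gene.

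Igfals (ENSMUSG00000046070) encodes the acid-labile subunit, a liver-made glycoprotein that joins IGF1 or IGF2 and an IGF-binding protein in the ternary complex of plasma. Its single peak had the strongest evidence of the 9. In the authors' deposited table the peak at chr17:24880397-24882010, labelled 3′ UTR, had a fold change of -2.31 on the log2 scale, a ratio of 0.202, with a log10 FDR of -434. That score is the floor of the table, held by 485 peaks (2.77%) including this one, of which 423 were negative, so Igfals cannot be ranked by evidence among them. Of the 3′ UTR peaks 5.35% had a lower fold change.

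The Igfals peak is 1614 bp wide in a compact gene of 4168 bp, which runs from 24877844 to 24882011 on chromosome 17, on the plus strand. It covers the gene from 61.25% of its span to 1 bp before its RefSeq end. The authors tied it to a processed transcript that starts at 24865997, upstream of the RefSeq gene, and so gave a distance of 14400 bp. From the RefSeq start of Igfals the peak begins at 2553 bp. Of the 4917 genes with exactly 1 called peak, 53.9% were negative.

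Taken by leading peak, the one with the smallest FDR, the order of the 4 genes in the authors' deposited table was Irs2 at -2.60, Insr at -2.38, Igfals at -2.31 and Ghr at -0.54. Without replicate values the order of the first 3, which lie within 0.29 of each other, cannot be tested. Of all 10277 genes, 47.6% had a negative called leading peak and 33.6% a positive one, and the median was -0.52. The shared annotation divides the members: of 20 KEGG pathways that the deposited table assigns to Insr and 13 to Irs2, 10 are common to both, among them the insulin signalling pathway. Insr shares 1 pathway with the 4 assigned to Ghr, PI3K-Akt signalling, and Irs2 shares 0 with Ghr. Igfals has no KEGG pathway in the table.

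The wider pathway was followed in 7 lists, which hold 76 genes beside the 4 members. Of these 54 had a listed peak, and by leading peak 32 were negative (59.3%), 17 positive (31.5%) and 5 not called, with a median of -0.93. The background for each list is the share over all genes, 47.6% negative and 33.6% positive. Over all 101 peaks of these genes 50 were called negative and 34 positive, where the shares over all listed peaks were 40.6% and 35.6%. Both signs occurred in the lists, as they did over all genes, so this is no trait of the pathway.

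The closest relatives of the receptors gave weaker or mixed values. For the IGF1 receptor gene Igf1r, the paralog of Insr, the authors' deposited table has a single 3′ UTR peak at -0.89 that is not called (log10 FDR -0.45). Igf2r, the gene of the receptor that clears IGF2, had -1.0 at its leading 3′ UTR peak and a called positive peak of 0.66 in the authors' deposited table. The only listed peak of Igf1, the main growth-promoting product of growth hormone action in liver, has 0.56 there in the authors' deposited table and missed the threshold (log10 FDR -0.67). Of the 3 listed genes of ligands and receptors beside Insr, 1 was thus negative and 2 were not called, while Igf2 and Insrr had no row.

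Prlr and Jak2 stand beside Ghr as its fellow receptor and its kinase. Prlr, which encodes the prolactin receptor of the same cytokine receptor family, had -2.55 in the last exon of its transcript (exon 9 of 9) and also held called 3′ UTR peaks of -1.80 and 1.39 in the authors' deposited table. Prlr thus also mixed signs, but its leading peak was far lower than that of Ghr. Jak2, the kinase bound to both receptors, had 3′ UTR peaks of -0.79 and -0.54 in the authors' deposited table, both called. The Jak2 peak at -0.79 spans 10588 bp of the genome. By leading peak, the STAT genes Stat3 had 1.17, Stat5a 1.20 and Stat5b 0.83 in the authors' deposited table, all called. That of Stat3 spans 28142 bp. STAT5B is the main mediator of growth hormone action in liver. Of the 6 genes of this list beside Ghr, 3 were negative and 3 positive, and the median was 0.10.

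Adaptors of the receptors were mostly negative, as Irs2 was. Of 6 listed genes beside Irs2, 5 were negative (83.3%) and 1, Sh2b2, was positive, with a median of -1.35. Over all genes 47.6% were negative by leading peak. Another 2 genes of the list had no row. Irs1, the other main insulin receptor substrate of liver, also had 4 peaks, and in the authors' deposited table they lay close together at -1.68, -1.72, -1.75 and -1.74. Of these 2 were called and the narrow peaks at -1.75 and -1.74 were not, while all 4 of Irs2 were. The Irs1 peak at -1.68 spans 50702 bp of the genome, and the other called one, at -1.72, is 121 bp wide with a log10 FDR of -1.72. Sos1, the exchange factor that activates Ras, had -2.18 and the docking protein gene Gab1 -1.66 in the authors' deposited table. Grb2, an adaptor of Ras activation, had -0.83 in the 3′ UTR and 0.53 in the 5′ UTR in the authors' deposited table, the arrangement of signs also seen in Ghr.

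**Figure D4:**
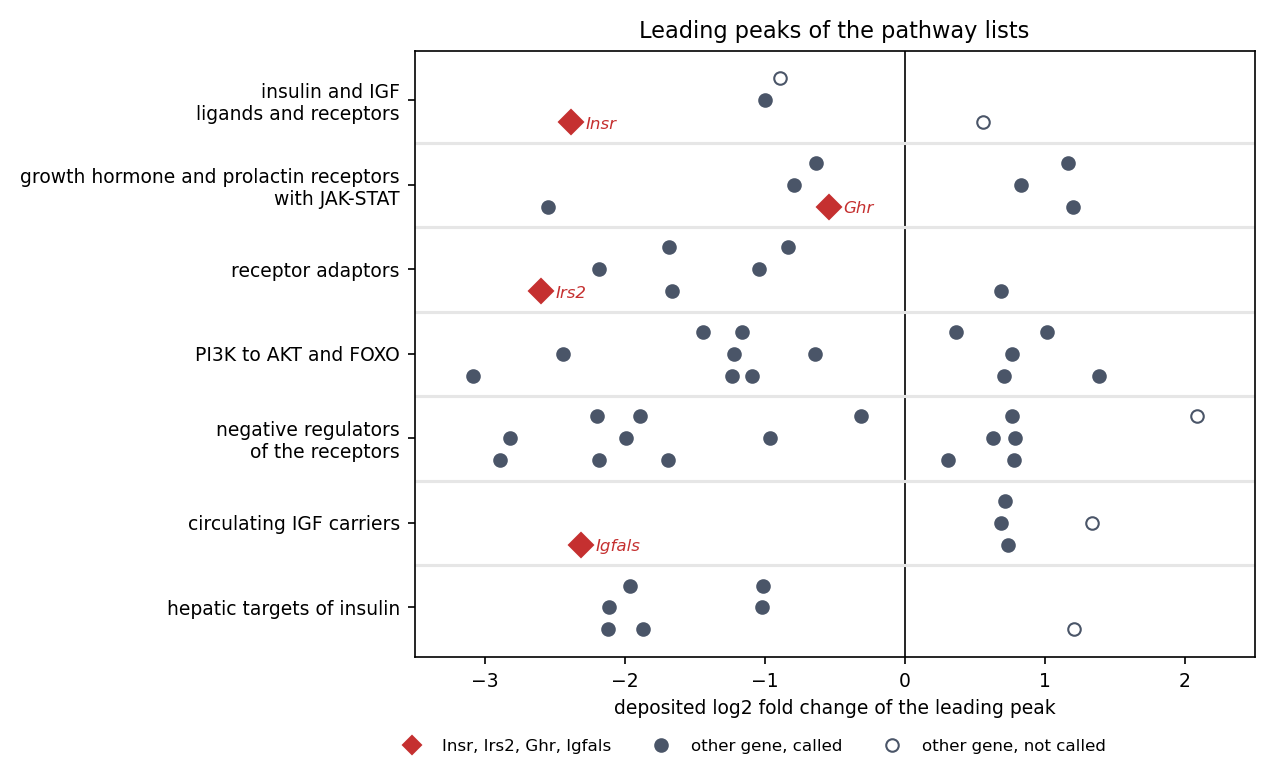
Deposited log2 fold change of the leading peak (horizontal axis) of each listed gene in the 7 lists, with diamonds for Insr, Irs2, Ghr and Igfals, filled circles for other called genes and open circles for genes not called. Igfals at -2.31 is the only negative gene among the circulating IGF carriers, and Irs2 at -2.60 the lowest of the adaptors.

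Among the listed carriers of IGFs in blood, Igfals was the only gene with a negative peak, a description without a test. None of the 4 other listed carriers was negative: 3 were called positive and 1 was not called, with a median of 0.73. Over all genes 47.6% were negative and 33.6% positive by leading peak. The remaining 5 genes of this list had no row. The authors' deposited table gives 0.69 for Igfbp4, 0.74 for Igfbp7 and 0.72 for Igfbp2, all genes of IGF-binding proteins. These peaks differ from that of Igfals in label or in width. The Igfbp7 peak is labelled 5′ UTR. Those of Igfbp4 and Igfbp2 are labelled 3′ UTR, as that of Igfals is, but are 91 and 61 bp wide, against 1614 bp for Igfals. Their log10 FDR values were -75.0 and -8.58. Igfbp5, whose product can join the ternary complex with the acid-labile subunit, had 1.34 in the authors' deposited table without passing the threshold. Igfbp3, the main partner of that subunit, had no row in the table used here.

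Downstream of the receptors the signs were mixed, with negative genes in the majority by leading peak. Over all genes 47.6% were negative and 33.6% positive by leading peak, and over all peaks 40.6% and 35.6%. In the list from phosphoinositide 3-kinase to AKT and FOXO, 8 of 13 listed genes were negative (61.5%) and 5 positive (38.5%), with a median of -1.09. Over the 25 peaks of these genes the signs were nearly even, with 11 called negative, 10 positive and 4 not called. By leading peak, the kinase subunit genes Pik3cb and Pik3r1 were at -3.08 and -1.23, and the transcription factor gene Foxo3 at -2.44 (authors' deposited table). The Foxo3 peak spans 11170 bp of the genome. A further called 3′ UTR peak was positive in Pik3cb, at 0.69, and in Pik3r1, at 1.07 (authors' deposited table). Both AKT genes had a positive leading peak in the 5′ UTR, at 1.39 for Akt1 and 1.02 for Akt2 in the authors' deposited table. Akt2 also held a called exon peak of -0.27 in the authors' deposited table. Among 15 listed negative regulators of the receptors 9 were negative (60.0%), 5 positive (33.3%) and 1 not called (median -0.96). Of their 29 peaks 14 were called negative, 10 positive and 5 not called. The negative genes include Socs6 at -2.89, a suppressor of cytokine signalling, and Ptprf at -2.82, a receptor phosphatase gene, in the authors' deposited table. Socs2, which restrains growth hormone signalling, had a single peak of 2.09 in the authors' deposited table that was not called (log10 FDR -0.46).

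Of 7 listed genes that insulin regulates in hepatocytes, 6 were negative (85.7%) and 1 was not called, with a median of -1.87. Over all genes 47.6% were negative by leading peak. The other 4 genes of this list had no row. Of all 15 peaks of the listed genes, 11 were called negative, 2 were called positive and 2 were not called. Insig1 and Insig2, which encode anchors that hold the sterol regulatory factors in the endoplasmic reticulum, had -1.96 and -1.87 at their leading peaks in the authors' deposited table, and Insig2 also a called 5′ UTR peak of 0.54. Fasn, the fatty acid synthase gene, had -1.02 in the 3′ UTR and 1.10 in the 5′ UTR in the authors' deposited table, again with opposite signs at the ends.

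In 2 broader KEGG sets, taken after the data were seen, both signs were common. Of 83 genes of the insulin signalling pathway other than the members, 42 were negative by leading peak and 32 positive (50.6% and 38.6%). Of 74 genes of the Jak-STAT pathway other than the members, 35 were negative and 26 positive (47.3% and 35.1%). Over all genes the shares were 47.6% negative and 33.6% positive. The medians of the leading peaks were -0.53 in the insulin signalling set and 0.32 in the Jak-STAT set, against -0.52 for all genes. The Jak-STAT shares lie close to those over all genes, so the sign of its median is not read as a difference.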

How the data were processed

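The only processed file was the authors' table of the comparison between the genotypes. The submitters' processing notes name HISAT2 2.1.0 and mm10. For the peak caller and the test, the tool is not given in the sources used here. For each peak the authors deposited, per the file headers, a log2 fold change and a log10 FDR, both held here as a score, and a p-value rounded to 2 decimals, which was 0 for all 9 member peaks. Another 189 rows had no gene name and held their values in shifted columns, and were not used. With no values per library, depth, errors, count models and leave-one-out or paired fits were not possible, and the edgeR fit held in reserve was not run.

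Counts, medians and shares were computed from the 17503 other rows across all peaks, at an FDR of 0.05. The leading peak of a gene had the smallest FDR, ties going to the larger change. The members, lists and alternatives were chosen with earlier results of these data known. All peaks of the members were named, up to 6 called genes of each list by FDR, and paralogs or partners of members. A few list genes are counted but not described singly here. Other genes, and the KEGG sets, were chosen after their values were seen. Of the 76 other list genes, 22 had no row. Functions were checked on made-up tables with known answers. Gene spans and promoters are RefSeq's of GRCm38.p6. Analyses used Python 3.11.15, numpy 2.4.6, pandas 2.3.3 and matplotlib 3.10.9.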

Additional observations from a re-analysis of the deposited data

How the results depend on the processing

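Of 44 alternative values, 36 kept their direction (for counts, stayed within 1.5 times). The side of the threshold was not checked for means or for single values relative to a median. Several of the 36 could not differ. The leading peak of each member is already a 3′ UTR peak, Igfals has 1 peak, and keeping rows without a gene name added no row. The direction of Ghr depends on how its peaks are combined: its value was 0.71 with the peak of largest absolute change and 0.085 as the mean over both peaks, against -0.54 for the leading peak. At an FDR of 1e-10 the positive member peaks numbered 0 and the positive genes of the 7 lists 2; with a minimum absolute log2 fold change of 1 they numbered 0 and 4. With peaks of up to 1000 bp, which removes wide peaks by construction, 4 member peaks were negative (8 over all widths), as were 19 list genes (32 over all widths), and Igfals had no peak left. With the table's median of 0.34 subtracted, the 9 peaks kept their signs. None of the rows without a gene name matched a named gene by identifier, so keeping them changed nothing. No paired analysis was possible because the table holds 1 comparison and no value per library; leaving out replicates was not possible for the same reason. Depth is unknown, so its limits cannot be stated.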
